A study of Homo sapiens with 4 samples.

Results

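The fatty acid uptake and oxidation genes described here were CD36, FABP3, CPT1A, CPT1B, CPT2, ACADVL, ACADM, HADHA, HADHB and PPARGC1A. They are listed by symbol as genes of this pathway, under a rule that sets no threshold on a measured value, and all 10 were found by Ensembl identifier among the 60234 genes counted. They were read in 4 RNA sequencing libraries of human embryonic stem cells that carry eGFP at the NKX2.5 locus (the eGFP/w reporter line). The cells had been differentiated to the cardiac lineage as spin embryoid bodies. RA cultures received 1 µM retinoic acid from day 4 to day 7, control (CTR) cultures received DMSO over the same days, and both were sorted on GFP at day 31. The groups were RA GFP+, CTR GFP+, RA GFP- and CTR GFP-, with 1 library each, so that culture and treatment cannot be told apart. No difference between conditions was tested. All groups came from the same reporter line, and the GFP gate follows NKX2-5 transcription and not a contractile or metabolic property.

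Fatty acids enter heart muscle cells through membrane proteins such as CD36 and are carried in the cytosol by FABP3, the heart-type fatty acid binding protein. As acyl-CoA they pass into mitochondria through the carnitine shuttle: CPT1 on the outer membrane (the liver-type CPT1A or the muscle-type CPT1B) makes acylcarnitine, and CPT2 on the inner membrane turns it back into acyl-CoA. The matrix cycle of beta-oxidation opens with the acyl-CoA dehydrogenases ACADVL for very long and ACADM for medium chains. HADHA and HADHB are the alpha and beta subunits of the mitochondrial trifunctional protein, which carries out the later steps on long chains, and PPARGC1A encodes PGC-1alpha, a transcriptional coactivator of these genes. The adult heart relies on this pathway for most of its fuel, whereas fetal heart muscle draws more on glucose and lactate.

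The libraries held between 26222787 and 28643091 counted reads, except the CTR GFP- library with 4371101, and every statement on that library rests on fewer reads. Levels are CPM (reads per 1e6 counted reads) scaled by TMM (trimmed mean of M values, a factor that aligns the bulk of genes between libraries). A floor of 3 reads came to between 0.105 and 0.117 CPM in the 3 larger libraries and to 0.639 CPM in the CTR GFP- library. NKX2-5 itself stood at 463 CPM in RA GFP+, 593 CPM in CTR GFP+, 9.74 CPM in RA GFP- and 14.5 CPM in CTR GFP-, in the order of the gate. The 9 cardiomyocyte markers (TNNT2, MYH6, NKX2-5 and others) summed to 16681 and 19516 CPM in the RA and CTR GFP+ libraries and to 478 and 872 CPM in the RA and CTR GFP- libraries. Fibroblast markers summed to 15165 CPM in RA GFP+ against 3966 CPM in CTR GFP+, and to 61591 CPM in RA GFP- against 32089 CPM in CTR GFP-. Skeletal muscle markers summed to 408 and 371 CPM in the RA and CTR GFP+ libraries and to 24.4 and 27.3 CPM in the RA and CTR GFP- libraries. Within the GFP+ sums CKM stood at 158 and 338 CPM and ACTA1 at 235 and 21.7 CPM in RA and CTR. The rest of that list was low there. MYOG stood at 11.5 and 5.30 CPM, MYH3 at 3.10 and 5.93 CPM, MYOD1 at 0.337 and 0 CPM, and MYF5 at 0 CPM in both. Neural and eye markers summed highest in CTR GFP- (722 CPM, of which PMEL 444, against 41.5 to 154 CPM in the others), while STMN2 of that list was highest in RA GFP- (72.7 CPM, against 16.8 in CTR GFP-). Intervals below are 95% intervals, exact Poisson for a level and Clopper-Pearson for a ratio or share, and they cover counting error only, not the spread between cultures or the choice of scaling. In such bulk samples fewer cells of a type and less RNA per cell cannot be told apart.

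**Figure D1:**
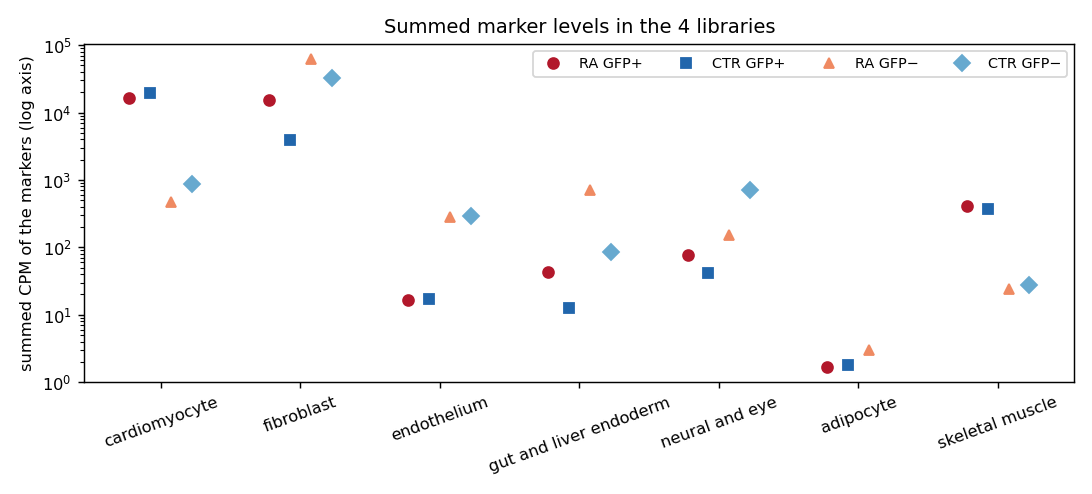
Summed CPM (log axis) of the markers of 7 cell types in the 4 libraries; each point is 1 library. The GFP+ libraries stood highest for cardiomyocyte markers, at 16681 and 19516 CPM, and the RA GFP- library for gut and liver endoderm markers, at 713 CPM; no point is drawn for adipocyte markers in CTR GFP-, where all 4 were at 0 reads.

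HADHA (ENSG00000084754, chr2:26413504-26467540, minus strand) and HADHB (ENSG00000138029, chr2:26466038-26513333, plus strand, both GRCh37) lie head to head. In RefSeq on GRCh38.p14 their start positions had 306 bases between them, so that the 250 bases before each start overlap over 194 bases. The upstream stretch of HADHA (chr2:26244633-26244882, minus strand, GRCh38.p14, 68.8% G and C) is shown because it makes up 250 of the 306 bases between the starts of both subunit genes; the HADHB start itself lies outside it. Capitals mark the 194 bases that also lie within the 250 bases before the start of HADHB.
HADHA: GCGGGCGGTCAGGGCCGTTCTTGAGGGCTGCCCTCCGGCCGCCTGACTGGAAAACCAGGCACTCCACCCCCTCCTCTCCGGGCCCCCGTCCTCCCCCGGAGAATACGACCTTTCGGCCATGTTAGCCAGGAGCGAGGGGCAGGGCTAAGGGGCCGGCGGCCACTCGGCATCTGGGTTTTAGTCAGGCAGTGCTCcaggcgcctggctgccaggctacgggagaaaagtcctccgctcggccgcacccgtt

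The stretches before the starts of FABP3 and PPARGC1A are shown because these 2 genes differed most between libraries. FABP3 (ENSG00000121769, chr1:31838100-31849697, minus strand, GRCh37) has 1 RefSeq start, with the stretch at chr1:31373077-31373326 on the minus strand of GRCh38.p14. PPARGC1A (ENSG00000109819, chr4:23756664-23905712, minus strand, GRCh37) has 2, with the stretch of the distal start at chr4:24472906-24473155 and that of the proximal start at chr4:23881102-23881351, both on the minus strand of GRCh38.p14. Capitals mark TATTTAAA, a variant of the TATA box, before FABP3 and the E-box CACGTG before the distal start of PPARGC1A; both motifs were picked after the sequences had been read. TATTTAAA also stood before 1 of the 6 starts of CD36.
FABP3: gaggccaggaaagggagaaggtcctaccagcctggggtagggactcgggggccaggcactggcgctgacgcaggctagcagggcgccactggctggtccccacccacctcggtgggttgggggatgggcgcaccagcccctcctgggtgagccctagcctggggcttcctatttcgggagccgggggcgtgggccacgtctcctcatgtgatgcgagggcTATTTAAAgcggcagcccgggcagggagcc
PPARGC1A distal start: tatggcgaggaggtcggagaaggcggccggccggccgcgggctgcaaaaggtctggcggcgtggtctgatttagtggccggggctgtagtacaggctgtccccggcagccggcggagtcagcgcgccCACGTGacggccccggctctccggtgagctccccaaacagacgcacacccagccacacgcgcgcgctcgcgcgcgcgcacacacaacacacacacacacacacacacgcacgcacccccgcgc
PPARGC1A proximal start: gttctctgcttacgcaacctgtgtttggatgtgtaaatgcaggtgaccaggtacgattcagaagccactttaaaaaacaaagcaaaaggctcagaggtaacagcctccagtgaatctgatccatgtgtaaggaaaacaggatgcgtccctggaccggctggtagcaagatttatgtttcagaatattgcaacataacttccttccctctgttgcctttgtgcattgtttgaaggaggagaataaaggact

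TATTTAAA was found, on either strand, in 1.79% of the 35116 stretches of the same length before RefSeq starts, and CACGTG in 6.34%. The FABP3 stretch and that of the distal PPARGC1A start were rich in G and C (69.2% and 70.8%), whereas that of the proximal PPARGC1A start held 44%. RefSeq windows were given for 9 of the 10 genes (16 windows in all); CPT1B was the exception. The nuclear receptor core motif AGGTCA, searched on both strands, was found in 0 of the 16 stretches and in 12.1% of all. The longer motifs that contain it were also found in 0 of the 16: TNAAGGTCA, bound by estrogen-related receptors (0.854% of all stretches), AGGTCANAGGTCA, bound by PPAR and RXR pairs (0.0171%), and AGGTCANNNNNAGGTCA, bound by retinoic acid receptors (0.00285%). The GC box GGGCGG was present before HADHA, HADHB, CPT2, ACADM and 1 of the 2 starts of ACADVL, and in 42.6% of all stretches. These are matches of letters in short windows, and the libraries do not show which start was used.

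Together the 10 genes took 1168 CPM in RA GFP+, 1056 CPM in CTR GFP+, 681 CPM in RA GFP- and 602 CPM in CTR GFP-. ACADVL alone supplied 32.1% and 32.9% of these reads in the RA and CTR GFP+ libraries and 43.3% and 44.5% in the RA and CTR GFP- libraries. FABP3 supplied 18.2% and 17.4% in the GFP+ libraries but 2.98% and 6.37% in the GFP- libraries. Compared per kilobase of the main transcript, FABP3 was the most abundant of the 10 genes in both GFP+ libraries (194 CPM per kilobase in RA, 167 in CTR), followed by ACADVL (171 and 159), HADHB (83.3 and 78.3) and HADHA (65.5 and 58.0). Per kilobase of all exons HADHA (44.5 and 39.4) came before HADHB (38.9 and 36.5), and lower ranks changed too; FABP3 and ACADVL stayed the top pair and CD36 the lowest in these libraries. In the GFP- libraries ACADVL came highest, at 135 and 123 CPM per kilobase in RA and CTR. HADHA and HADHB followed there, at 53.5 and 52.2 CPM per kilobase in RA and 43.6 and 42.9 in CTR, with overlapping counting intervals in each library. CD36 stood lowest in all 4 libraries, between 0.787 and 2.38 CPM per kilobase, although in both GFP- libraries its interval overlapped that of PPARGC1A (0.948 and 1.59 CPM per kilobase in RA and CTR). In CTR GFP- the intervals of HADHB and FABP3, of CPT1B and CPT2 and of CPT1A and PPARGC1A overlapped as well, in CTR GFP+ those of PPARGC1A and CPT1A, in RA GFP- those of FABP3 and ACADM, and in RA GFP+ those of PPARGC1A, CPT1A and CPT2, from 11 to 10.1 CPM per kilobase.

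**Figure D2:**
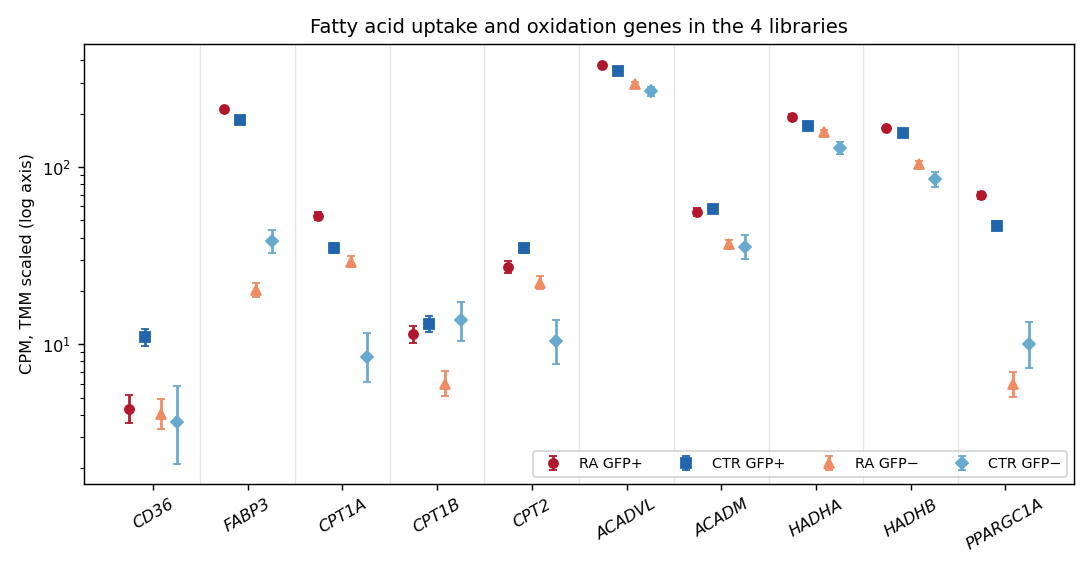
CPM (log axis) of the 10 genes in the 4 libraries, 1 point per library, with exact Poisson 95% intervals. FABP3 and PPARGC1A show the widest gap between GFP+ and GFP- libraries, CPT1A and CPT2 stand lowest in CTR GFP-, and ACADVL, ACADM, HADHA and HADHB lie within 2-fold over all 4 libraries.

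The first question was how the sorted fractions differed within each culture. A gene was counted as different when log2(CPM + 1) differed by at least 1 (2-fold) and it reached 10 CPM in either library. Between GFP+ and GFP- cells of the CTR culture, CD36, FABP3, CPT1A, CPT2 and PPARGC1A were at least 2-fold higher in GFP+ cells, 5 of the 10 genes, against 11.9% of all 11806 genes that reached 10 CPM. None of the 10 was lower by as much, against 13.3% of all genes (25.2% in either direction). After RA, 9 of the 10 reached 10 CPM, of which FABP3 and PPARGC1A were at least 2-fold higher in GFP+ cells, against 9.97% of 11850 genes, and 0 were lower, against 12.4% (22.4% in either direction). CD36 and CPT1A in CTR, and CPT1B and PPARGC1A with RA, reached 10 CPM in the GFP+ library and not in the GFP- library, so the filter admitted them through the side on which they were high and the counts are descriptions. The median difference of the genes measured was 1.12 in the CTR culture and 0.67 after RA on the log2(CPM + 1) scale, where all genes had medians of 0.08 and 0.02. Counting intervals of the ratio lay above 1 for 9 of 10 genes in CTR and 9 of 9 after RA, against 41.2% and 43.0% of all genes, and below 1 for 0, against 33.8% and 40.7%. The cardiomyocyte markers were 22.4-fold higher in GFP+ than in GFP- cells of the CTR culture and 34.9-fold higher after RA. Transcripts of the mitochondrial genome made up 14.9% and 14.1% of reads in the RA and CTR GFP+ libraries, against 5.56% and 7.48% in the RA and CTR GFP- libraries. The part of either in these differences was not tested.

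**Figure D3:**
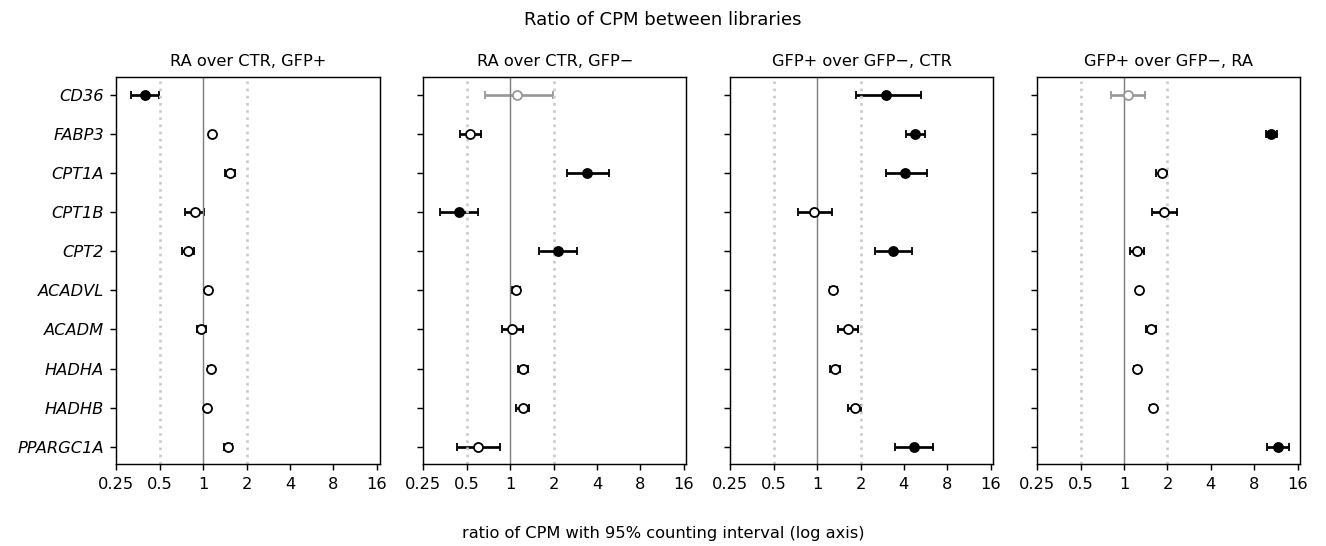
Ratio of CPM between 2 libraries (log axis) for the 10 genes in the 4 comparisons, with Clopper-Pearson 95% intervals. Filled points differed at least 2-fold on log2(CPM + 1), open points less, and grey points had under 10 CPM in both libraries; dotted lines mark 2-fold. FABP3 and PPARGC1A stand at 10.5 and 11.7 in the RA culture, and CPT1A at 3.43 between GFP- libraries.

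CD36, the scavenger receptor that takes up long-chain fatty acids (ENSG00000135218, chr7:79998891-80308593, plus strand, GRCh37), was low throughout. It stood at 4.34 CPM in RA GFP+, 11 CPM in CTR GFP+, 4.05 CPM in RA GFP- and 3.62 CPM in CTR GFP- (116, 314, 104 and 17 reads). The CTR GFP+ library was thus the high one, and the counting intervals of the other 3 overlapped. RA GFP+ cells held 0.396 times the CTR GFP+ level (interval 0.317 to 0.491; log2 difference -1.16), and CD36 was the only gene of the 10 at least 2-fold apart between these libraries, where 1.67% of 11186 genes were lower by as much. At this low level the call depends on the pseudocount, and with 5 CPM added instead of 1 the difference was -0.77. In CTR the GFP+ level was 3.03 times the GFP- level (1.86 to 5.26; log2 difference 1.37, or 0.89 with 5 CPM added), whereas with RA the ratio was 1.07 (0.814 to 1.41) at under 10 CPM in both. CD36 is also made by endothelium and fat cells. The 6 endothelial markers summed to 16.8 and 17.1 CPM in the RA and CTR GFP+ libraries, and to 278 and 287 CPM in the RA and CTR GFP- libraries. KDR carried that last pair of sums (142 and 204 CPM), whereas ERG, TIE1 and TEK were 2.39-fold, 2.26-fold and 1.79-fold higher in RA GFP- than in CTR GFP-. The 4 adipocyte markers summed to at most 2.96 CPM in any library.

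FABP3 was read in the order RA GFP+ (212.5 CPM), CTR GFP+ (184 CPM), CTR GFP- (38.3 CPM) and RA GFP- (20.3 CPM), with no overlap of neighbouring counting intervals. Both GFP+ libraries were thus far above both GFP- libraries. The GFP+ level was 4.79 times the GFP- level in CTR (4.13 to 5.59; log2 difference 2.23) and 10.5 times in RA (9.58 to 11.5; log2 difference 3.33). Between treatments the difference was small in GFP+ cells (RA 1.16 times CTR, 1.11 to 1.20) and went the other way in GFP- cells (0.529 times, 0.445 to 0.630; log2 difference -0.89). In the GFP- libraries the cardiomyocyte markers summed to 0.548 times the CTR level with RA, with single markers from 0.319 times (MYH7) to 1.00 times (PLN). The part of this in FABP3 was not tested. Expressed per 1000 reads of the cardiomyocyte markers, a scale chosen after the data had been seen, FABP3 stood at 42.4 (38.7 to 46.3) in RA GFP- and 43.9 (37.6 to 51.0) in CTR GFP-, intervals that overlap. In RA GFP+ it stood at 12.7 (12.4 to 13.1) and in CTR GFP+ at 9.41 (9.16 to 9.67). Nothing is read from these values, since the scale raises the RA to CTR ratio of every gene in GFP- cells alike. ACADVL came to 616 in RA GFP- and 307 in CTR GFP- on it. Reads of FABP3 per read of CD36 came to 49.0 in RA GFP+, 16.8 in CTR GFP+, 5.0 in RA GFP- and 10.6 in CTR GFP-.

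The carnitine shuttle genes showed no common pattern. CPT1A (ENSG00000110090, chr11:68522088-68611878, minus strand, GRCh37) stood at 53.2 CPM in RA GFP+, 34.9 CPM in CTR GFP+, 29.2 CPM in RA GFP- and 8.52 CPM in CTR GFP- (1423, 1001, 750 and 40 reads), and each step lay outside the counting intervals. In both fractions the RA library was the higher, by 1.52-fold in GFP+ cells (1.40 to 1.65) and by 3.43-fold in GFP- cells (2.5 to 4.84; log2 difference 1.67). CPT1A was 4.10-fold higher in GFP+ than in GFP- cells in CTR (2.99 to 5.78) and 1.82-fold higher in RA (1.67 to 1.99; log2 difference 0.84, or 1.08 when thinned to the depth of the smallest library). CPT1A is the isoform of liver and many other tissues. Among the markers, those of gut and liver endoderm summed to 713 CPM in RA GFP- and 85.4 CPM in CTR GFP- (8.35-fold; TTR alone made up 73.0 CPM of the latter), and those of fibroblasts were 1.92-fold higher in RA GFP-. In the GFP+ libraries, where CPT1A stood higher than in either GFP- library, the endoderm markers summed to 43.5 CPM in RA and 12.7 CPM in CTR. Their part in the CPT1A differences was not tested.

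CPT1B, the muscle isoform (ENSG00000205560, chr22:51007290-51016894, minus strand, GRCh37), stood at 11.4 CPM in RA GFP+, 13.0 CPM in CTR GFP+, 6.0 CPM in RA GFP- and 13.6 CPM in CTR GFP- (304, 373, 154 and 64 reads). RA GFP- was the low library, and the other 3 were not separated from their neighbours in level by their counting intervals. RA GFP- cells held 0.440 times the CTR GFP- level (0.327 to 0.599; log2 difference -1.06, or -0.76 with 5 CPM added), whereas in GFP+ cells the ratio of RA to CTR was 0.873 with an interval that spans 1 (0.748 to 1.02). GFP+ and GFP- cells of the CTR culture were not separated (0.955, 0.731 to 1.27), and with RA the GFP+ level was 1.89 times the GFP- level (1.56 to 2.31). This gene must be read with care: 66.4% of its exon bases (2722 of 4102) lie on the same strand within the read-through gene CHKB-CPT1B, which itself held between 0 and 3 reads. Reads that fit both genes equally are left out by the counting mode used, so the level of CPT1B is uncertain and may be too low in every library.

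The balance of the 2 CPT1 isoforms differed between libraries, and this share does not depend on how libraries are scaled. CPT1B made up 17.6% of CPT1A plus CPT1B reads in RA GFP+ (15.8 to 19.5%), 27.1% in CTR GFP+ (24.8 to 29.6%), 17% in RA GFP- (14.6 to 19.6%) and 61.5% in CTR GFP- (51.5 to 70.9%, 104 reads). In each fraction the RA library thus had the smaller CPT1B share, and CTR GFP- was the only library in which CPT1B exceeded CPT1A in reads. Per kilobase of the main transcript the shares were 30.1%, 42.9%, 29.2% and 76.3% in the same order. The shares are too low to the extent that CPT1B reads were left out by the overlap.

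**Figure D4:**
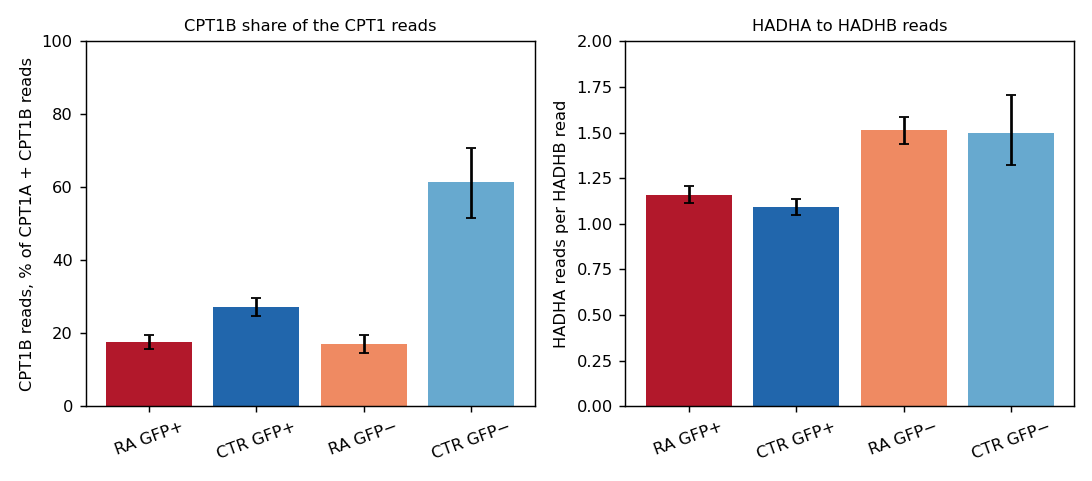
Left, reads of CPT1B as a percentage of CPT1A plus CPT1B reads; right, reads of HADHA per read of HADHB. Bars are single libraries and error bars Clopper-Pearson 95% intervals. CTR GFP- stands apart on the left at 61.5%, and both GFP- libraries lie near 1.5 on the right, above both GFP+ libraries.

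CPT2 (ENSG00000157184, chr1:53662464-53679869, plus strand, GRCh37) stood at 27.3 CPM in RA GFP+, 34.8 CPM in CTR GFP+, 22.3 CPM in RA GFP- and 10.4 CPM in CTR GFP- (730, 997, 572 and 49 reads). CTR GFP+ was the highest and CTR GFP- the lowest library, so the RA libraries lay between the CTR libraries. RA cells held 0.785 times the CTR level in the GFP+ fraction (0.712 to 0.864) but 2.14 times in the GFP- fraction (1.59 to 2.92; log2 difference 1.03). The latter lies close to the 2-fold limit: it was 0.90 with library size alone, 0.94 with upper quartile factors, 0.91 with library size without mitochondrial and the 10 most abundant genes, 0.90 after thinning and 0.82 with 5 CPM added. Within cultures, CPT2 was 3.33-fold higher in GFP+ cells in CTR (2.5 to 4.54) and 1.22-fold higher with RA (1.10 to 1.37). An antisense long noncoding RNA and CZIB cover 12.4% of its exon bases, and reads there cannot be assigned by counting without strand. Reads of CPT2 per read of CPT1A plus CPT1B were 0.423 in RA GFP+ (0.387 to 0.461) and 0.726 in CTR GFP+ (0.668 to 0.788), and 0.633 in RA GFP- (0.569 to 0.703) and 0.471 in CTR GFP- (0.328 to 0.668).

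The matrix enzymes were the steadiest of the 10 genes, as none of the 4 reached 2-fold in any of the 4 comparisons. ACADVL (ENSG00000072778, chr17:7120444-7128585, plus strand, GRCh37) ranged from 268 CPM in CTR GFP- over 295 CPM in RA GFP- and 347 CPM in CTR GFP+ to 374 CPM in RA GFP+, a span of 1.40-fold. ACADM (ENSG00000117054, chr1:76190116-76253260, plus strand, GRCh37) stood at 56.0 and 57.8 CPM in the RA and CTR GFP+ libraries and at 36.6 and 35.6 CPM in the RA and CTR GFP- libraries, with overlapping intervals between treatments in each fraction. All of these levels were higher in the GFP+ than in the GFP- fraction of the same culture, by 1.27-fold to 1.63-fold. About 11% of the exon bases of ACADM are shared with DLSTP1 and RABGGTB. The ratio of RA to CTR was 0.969 for ACADM in GFP+ cells (0.903 to 1.04) and 1.03 in GFP- cells (0.872 to 1.22).

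HADHA was read at 193 CPM in RA GFP+, 171 CPM in CTR GFP+, 158 CPM in RA GFP- and 128 CPM in CTR GFP-. HADHB followed the same order at 166, 156, 104 and 85.6 CPM. For both subunits the RA library was slightly the higher in each fraction, by 1.13-fold and 1.06-fold in GFP+ cells and by 1.23-fold and 1.22-fold in GFP- cells, with all 4 intervals above 1 under TMM scaling. In GFP+ cells the log2 differences of 0.17 and 0.09 came to 0.10 and 0.02 with library size alone. The genes share the upstream bases printed above in capitals, and their balance differed between fractions. HADHA reads per HADHB read came to 1.16 in RA GFP+ (1.11 to 1.21) and 1.09 in CTR GFP+ (1.05 to 1.14), but to 1.51 in RA GFP- (1.44 to 1.59) and 1.5 in CTR GFP- (1.32 to 1.71). The GFP- libraries thus held more HADHA per HADHB in both cultures, with intervals that do not reach those of the GFP+ libraries. Thinned to the depth of the smallest library, an alternative chosen after the data had been seen, the ratios were 1.04, 1.06, 1.75 and 1.5 in the same order. Only uniquely aligned reads were kept, so reads identical in the pseudogenes HADHAP1, HADHAP2 and HADHBP1 are left out; these held at most 96 reads each in any library.

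PPARGC1A, the regulator, stood at 69.5 CPM in RA GFP+, 46.8 CPM in CTR GFP+, 5.96 CPM in RA GFP- and 10.0 CPM in CTR GFP- (1858, 1341, 153 and 47 reads). Its order of libraries was that of FABP3, with both GFP+ libraries high and RA GFP- lowest, and neighbouring intervals did not overlap. GFP+ cells held 4.68 times the GFP- level in CTR (3.50 to 6.39; log2 difference 2.12) and 11.7 times in RA (9.88 to 13.8; log2 difference 3.34). RA was 1.48 times CTR in GFP+ cells (1.38 to 1.59; log2 difference 0.56) and 0.596 times in GFP- cells (0.427 to 0.845; log2 difference -0.66). Per 1000 cardiomyocyte marker reads, PPARGC1A stood at 4.16 (3.98 to 4.36) in RA GFP+ and 2.40 (2.27 to 2.53) in CTR GFP+, and at 12.5 (10.6 to 14.6) in RA GFP- and 11.5 (8.42 to 15.3) in CTR GFP-. The intervals of the GFP- libraries overlapped, as they did for FABP3. Nothing is read from this, since the scale raises the RA to CTR ratio of every gene in GFP- cells alike, the marker sum there being at 0.548 times; ACADVL, which differed little in CPM, came to 616 and 307 per 1000 marker reads.

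Between treatments, few of the 10 genes were 2-fold apart. In GFP+ cells this held for 1 gene in either direction (CD36, lower with RA), against 5.81% of 11186 genes (4.14% higher and 1.67% lower). In GFP- cells CPT1A and CPT2 were higher and CPT1B lower with RA, 3 of the 9 genes that reached 10 CPM, against 8.13% of 11606 genes (4.95% higher and 3.18% lower). CPT1A passed the filter through RA GFP- alone, CPT1B and PPARGC1A through CTR GFP- alone, and CD36 in GFP+ cells through CTR alone. PPARGC1A stood at 10.0 CPM in CTR GFP-, at the limit of the filter. The counts here, of 2-fold genes and of intervals, are therefore descriptions. The count in GFP- cells also depends on the scaling: with library size alone, or without mitochondrial and the 10 most abundant genes, CPT1A was the only gene higher, CPT1B stayed lower, and FABP3 was also lower, with log2 differences of -1.02 and -1.0 under these 2 scalings. The medians of the genes measured were 0.10 in GFP+ and 0.14 in GFP- cells, where all genes had medians of 0.02 and 0.08. Smaller differences beyond counting error were common among all genes: intervals lay above 1 for 6 of 10 genes and 36.2% of all genes in GFP+ cells, and for 5 of 9 and 35.3% in GFP- cells. They lay below 1 for 2 of 10 genes and 32.4% of all genes in GFP+ cells, and for 3 of 9 and 23.7% in GFP- cells. Intervals above 1 in one fraction and below 1 in the other were found for 3 of 9 genes (FABP3, CPT2 and PPARGC1A) and for 14.5% of 10385 genes. The fibroblast markers were 3.82-fold higher in RA GFP+ than in CTR GFP+, and the cardiomyocyte markers summed to 0.855 times the CTR level. Of the 9 cardiomyocyte markers 8 were lower, unevenly. MYH7 stood at 664 against 2111 CPM (0.315 times) and TNNI1 at 0.638 times, while MYH6 was at 1.045 times. The part of either marker list in these differences was not tested. The 4 comparisons share libraries, so a high or low CTR GFP- value enters both comparisons that use it.

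Another 92 genes, of 94 listed, were found in the counts. They cover the pathway and related lists: peroxisomal oxidation, regulators, genes that respond to PPAR receptors and the tricarboxylic acid cycle. ACACA and TXNIP were not analysed here. Between GFP+ and GFP- cells of the CTR culture, 18 of the 70 that reached 10 CPM were at least 2-fold higher in GFP+ cells and 1 was lower, against 11.9% and 13.3% of all genes. Of these 18, 5 were tricarboxylic acid cycle genes. With RA 10 of 73 were higher, 3 of them of the tricarboxylic acid cycle, and 4 were lower, against 9.97% and 12.4%. Several passed the filter only through the library in which they were high, so the counts are descriptions. Among them were SLC27A6, RXRG, ESRRG, IDH3A and ACOX2 in CTR (GFP+ side) and PPARG, ANGPTL4 and PDK4 with RA (GFP- side). Among uptake genes, the fatty acid transporter SLC27A6 was 12.5-fold higher in GFP+ cells in CTR (40.0 against 3.19 CPM) and stood at 30.8 against 20.3 CPM with RA. The epidermal-type binding protein FABP5 was 4.85-fold higher with RA (50.6 against 10.4 CPM) and stood at 7.78 against 6.81 CPM in CTR. ACACB, which makes the malonyl-CoA that inhibits CPT1, was 7.39-fold higher in GFP+ cells in CTR (250.3 against 33.9 CPM) and 11.5-fold higher with RA (173 against 15.1 CPM). The high side was the GFP+ library in each of these pairs. The 14 other mitochondrial beta-oxidation genes measured had medians of 0.87 in CTR and 0.30 with RA, with 3 and 1 of them at least 2-fold higher in GFP+ cells (11.9% and 9.97% of all genes). ECI1, an enoyl-CoA isomerase, was 2.94-fold and 2.64-fold higher. All 13 tricarboxylic acid cycle genes were higher in GFP+ cells in both cultures, with intervals above 1 (41.2% of all genes in CTR and 43.0% with RA), and had medians of 0.95 and 0.80, against 0.08 and 0.02. The largest difference among them was that of IDH3A, a subunit of isocitrate dehydrogenase, at 8.85-fold in CTR and 3.18-fold with RA.

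Among the other regulators, the estrogen-related receptor ESRRG, which works with PGC-1alpha, was 5.13-fold higher in GFP+ cells in CTR and 5.56-fold higher with RA, at 49.1 and 51.5 CPM in the CTR and RA GFP+ libraries. The retinoid X receptor RXRG was 6.12-fold and 8.26-fold higher. ESRRA was 2.53-fold higher in CTR. PPARG, the receptor known for fat cell formation, went the other way with RA, at 3.74 CPM in GFP+ and 18.4 CPM in GFP- cells (0.204 times). The peroxisomal genes had medians of 0.68 in CTR (10 genes) and 0.65 with RA (11 genes), and the acyl-CoA oxidase ACOX2 was 3.50-fold and 2.32-fold higher in GFP+ cells. Genes that respond to PPAR receptors were mixed. The uncoupling protein gene UCP2 stood lower in GFP+ than in GFP- cells, at 0.410 times in CTR and 0.436 times with RA, while the acyl-CoA thioesterase ACOT2 was 2.43-fold and 1.81-fold higher and LIPE, hormone-sensitive lipase, 2.74-fold higher with RA. ANGPTL4 and PDK4 reached 10 CPM only in RA GFP- (17.5 and 11.8 CPM) and stood at no more than 4.30 and 4.0 CPM elsewhere.

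**Figure D5:**
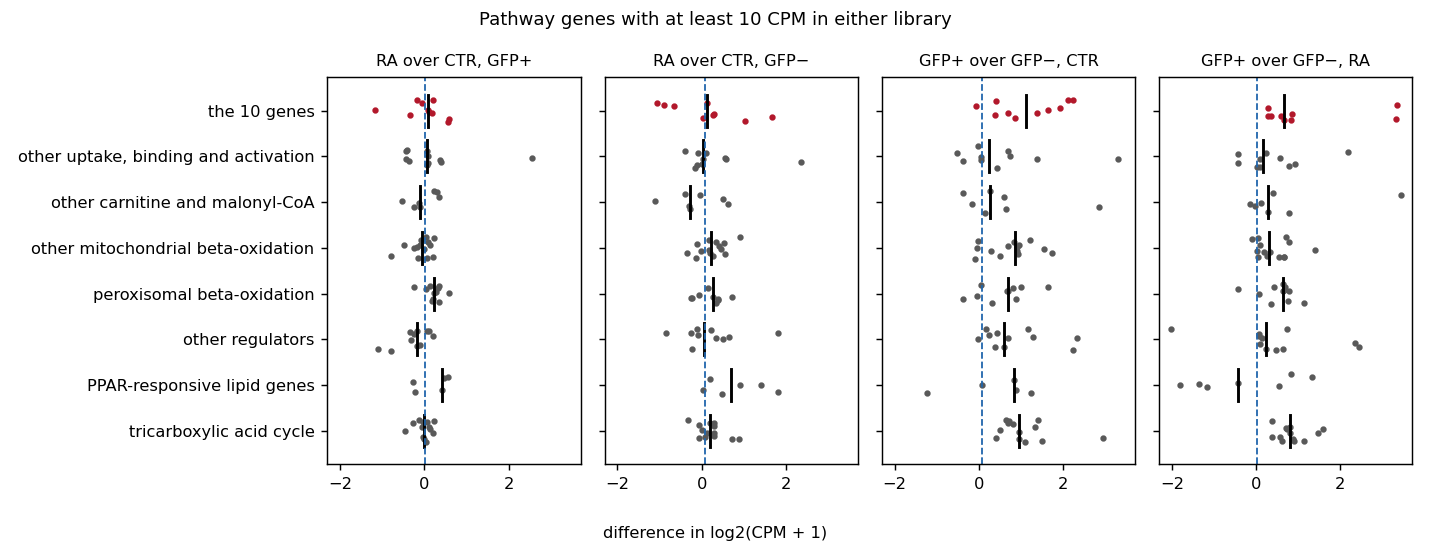
Difference in log2(CPM + 1) for the 10 genes (red) and for other genes of the pathway and related lists (grey) with at least 10 CPM in either library, in the 4 comparisons. Short black lines are list medians and the dashed blue line is the median of all genes. All 13 tricarboxylic acid cycle genes lie right of 0 in both comparisons of fractions.

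Between treatments in GFP+ cells, 1 of the 72 genes at 10 CPM or more was at least 2-fold higher with RA and 1 was lower, against 4.14% and 1.67% of all genes. FABP5 was 6.51-fold higher with RA (50.6 against 7.78 CPM) and the PGC-1beta gene PPARGC1B lower (8.60 against 19.5 CPM, 0.441 times). Each reached 10 CPM only in the library in which it was high, and the PPARGC1B call was lost with 5 CPM added. Of the 11 peroxisomal genes, 9 had intervals above 1, against 36.2% of all genes, and their median was 0.22, against 0.02. The other regulators went the other way, with 8 of 11 intervals below 1, against 32.4% of all genes, and a median of -0.18, and the other mitochondrial beta-oxidation genes were divided (3 above and 5 below 1 of 14). In GFP- cells 4 of 69 genes were at least 2-fold higher with RA and 1 was lower, against 4.95% and 3.18% of all genes. PPARG was 4.10-fold higher, ANGPTL4 4.11-fold, PDK4 3.08-fold and SLC27A6 6.37-fold, while ACACB stood at 0.447 times. ANGPTL4, an inhibitor of lipoprotein lipase, and PDK4, a kinase that restrains pyruvate oxidation, are both known to respond to PPAR receptors. All 4 higher genes reached 10 CPM in RA GFP- and not in CTR GFP-, so that the filter admitted them through the library in which they were high. The endoderm markers AFP and APOA1 stood at 465 and 131 CPM in RA GFP- against 2.98 and 4.90 CPM in CTR GFP-, whereas TTR of the same list stood at 11.7 against 73.0 CPM; their part in these differences was not tested.

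For the 3 genes whose log2(CPM + 1) spanned at least 2 over the libraries (PPARGC1A 3.34, FABP3 3.33 and CPT1A 2.51), the most alike profiles were sought among 12259 genes, after centring each gene on its mean over the 4 libraries. FABP3 was closest to CMYA5, which encodes a protein of striated muscle, with a root mean square difference of 0.05 (180 CPM in RA GFP+, 162 in CTR GFP+, 16 in RA GFP- and 33.0 in CTR GFP-). The next were UNC80, a subunit of a sodium leak channel, and PPARGC1A, both at 0.15. UNC80 was low in the GFP- libraries (0.662 CPM in RA and 2.34 CPM in CTR), so its distance rests on the 1 CPM added before the logarithm. PPARGC1A was closest to UNC80 (0.14), FABP3 (0.15) and CHRM2 (0.15), the muscarinic receptor of heart muscle. CPT1A was closest to UNC5CL (0.07), the antisense transcript NR4A1AS (0.12, uncertain since strand was not used in counting) and FREM1 (0.15), a matrix protein gene. All 3 shared with it the lowest level in CTR GFP-, at 4.26 CPM for UNC5CL, 1.28 CPM for NR4A1AS and 14.3 CPM for FREM1 (82.2 CPM in RA GFP+). At such low levels in the smallest library the distances of UNC5CL and NR4A1AS rest on few reads and in part on the 1 CPM added. These distances rest on 4 libraries and describe the profiles only.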

How the data were processed

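RNA of 4 sorted populations was sequenced as strand-specific paired-end libraries, 1 per condition. After trimming, the authors mapped the reads with GSNAP against a modified hg19. They kept uniquely aligned reads, sorted them with SAMtools 0.1.18 and counted reads per Ensembl gene with HTSeq 0.6.1p1 without strand, in intersection-nonempty mode. The file deposited holds those raw counts per gene. The release of Ensembl is not given in the sources used here. Gene names and GRCh37 positions came from GENCODE by Ensembl identifier, per-kilobase levels from its main (MANE) transcripts, and upstream sequences from RefSeq on GRCh38.p14.

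CPM were computed from the counts with TMM factors fitted over all 4 libraries (edgeR 4.0.16, R 4.3.3); the authors also used TMM in edgeR. Differences are in log2(CPM + 1); fold changes are ratios of CPM without pseudocount. A gene was counted as different at 2-fold or more on log2(CPM + 1) provided that it reached 10 CPM in 1 of the 2 libraries, and the same rule over all genes gave the background. With 1 library per condition no test was run. Intervals came from scipy 1.17.1 in Python 3.11.15. The steps were tested on simulated data. Groups followed the sample titles, and all 4 libraries were used.

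The grouping into these 10 genes, the pathway and marker lists and the motifs were chosen with earlier results of these data known. A gene of the pathway is not reported here. In each list the text names at most the 3 genes with the largest positive and the 3 with the largest negative difference in a comparison; single markers, and the genes of the closing observations, were chosen after their values had been seen. The 3 closest profiles are named for each of the 10 genes spanning at least 2 in log2(CPM + 1). Alternatives were scaling by library size, DESeq2 1.42.0 size factors, upper quartile, pairwise TMM, library size after leaving out mitochondrial genes and the top 10, a pseudocount of 0.25 or 5 CPM, thinning to 4371101 reads, a minimum of 4 reads and a 1.5-fold threshold.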

Additional observations from a re-analysis of the deposited data

Results flagged for a closer look

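For 3 of the 10 genes the RA library was higher than the CTR library in one fraction and lower in the other, with the counting interval of each ratio on 1 side of 1; the same held for 14.5% of the 10385 genes that reached 10 CPM in both comparisons, as 9 of the 10 did. For FABP3 the log2 difference was 0.21 in GFP+ cells and -0.89 in GFP- cells. For PPARGC1A it was 0.56 in GFP+ cells and -0.66 in GFP- cells. In GFP- cells PPARGC1A passed the filter through CTR alone, its high side, at 10.0 against 5.96 CPM. CPT2 went the opposite way, at -0.34 in GFP+ cells and 1.03 in GFP- cells. CD36 (-1.16 and 0.13) and ACADM (-0.05 and 0.04) also had opposite signs in GFP+ and GFP- cells, but the interval spanned 1 for CD36 in GFP- cells and for ACADM in both. With 1 library per condition whether the RA difference itself differs by fraction was not tested. The cardiomyocyte markers summed to 0.855 times the CTR level in RA GFP+ and to 0.548 times in RA GFP-. Single markers differed, with MYH7 at 0.315 and 0.319 times, MYH6 at 1.045 times in GFP+ cells and PLN at 1.00 times in GFP- cells.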

How the results depend on the processing

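Of 40 differences (10 genes in 4 comparisons), 37 kept their sign under all 8 alternatives of scaling, pseudocount and depth, and so did all 11 that were at least 2-fold. The 3 that changed sign were at most 0.13 in size: ACADM between GFP+ libraries (0.12 when thinned), CD36 between GFP- libraries (-0.04 when thinned) and ACADM between GFP- libraries (down to -0.09 with other scalings). Between GFP+ libraries the count of 2-fold genes fell from 1 (CD36) to 0 with a pseudocount of 5 CPM and was 2 at 1.5-fold. Between GFP- libraries it went from 3 (2 higher, 1 lower) to 1 with 5 CPM and to 5 at 1.5-fold, was 2 (1 higher, 1 lower) with upper quartile factors or thinning, where CPT2 lost its call, and 3 (1 higher, 2 lower) with library size alone or without mitochondrial and the 10 most abundant genes, where FABP3 gained a call and CPT2 lost its own. Between the fractions of CTR it was 4 with 5 CPM, without CD36, and between the fractions with RA it was 6 at 1.5-fold and 3 when thinned, where CPT1A gained a call (1.08), instead of 2. The CPT1B share was 30.1%, 42.9%, 29.2% and 76.3% (RA GFP+, CTR GFP+, RA GFP-, CTR GFP-) per kilobase of the main transcript and 25.5%, 37.4%, 24.8% and 71.9% per kilobase of all exons, the latter chosen after the data had been seen. Over all genes, the 2-fold counts of 650 and 943 (RA against CTR in GFP+ and GFP- cells) and of 2973 and 2656 (GFP+ against GFP- in CTR and RA) became 1510, 2492, 5290 and 4764 at 1.5-fold and 1260, 3038, 5837 and 4393 with a minimum of 4 reads, and 943 became 592 with a pseudocount of 5 CPM. Between GFP- libraries the share of higher among 2-fold genes was 60.9%, but 46.7% with library size alone, 51.4% with upper quartile factors and 47.9% without mitochondrial and the 10 most abundant genes, as the median of all genes moved from 0.08 to -0.06 with library size alone; between the fractions of CTR it moved from 0.08 to -0.03. No paired analysis was run, as each condition has 1 library and the labels carry no replicate numbers. A fit that takes the fractions of a treatment as a pair would leave 1 residual degree of freedom and was not run either. The CTR GFP- library, with 4371101 reads, sets the precision of both comparisons that use it: CPT1A had 40 reads there, PPARGC1A 47 and CD36 17.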

Other observations

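Several related genes with values outside the comparisons above may be read beside the 10 genes. CPT1C, the brain-type isoform, stood at 50.1 CPM in RA GFP+, 39.4 CPM in CTR GFP+, 28.7 CPM in RA GFP- and 35.6 CPM in CTR GFP-. The adipocyte binding protein FABP4 was at most 1.75 CPM in any library, and the intestinal FABP2 had 0 reads in all 4, which allows at most 0.105 to 0.639 CPM. LPL, lipoprotein lipase, was low throughout, from 0.279 CPM in CTR GFP+ to 6.60 CPM in CTR GFP-. PLIN2, a lipid droplet coat protein, stood at 101 and 74.9 CPM in the RA and CTR GFP+ libraries and at 135 and 71.3 CPM in the RA and CTR GFP- libraries. These genes were chosen after their values had been seen, and with 1 library per condition none of the differences was tested.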
